A study of Homo sapiens with 16 samples.

Results

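The genes described here encode chemokine ligands and chemokine receptors. They are the rows of the expression table whose symbol is CCL, CXCL or CX3CL with a number, or CCR, CXCR, CX3CR or ACKR with a number. Of 39007 symbols, 50 met this rule, 31 of them ligands and 19 receptors. On average over all libraries, 15 of the 50 were above 1 CPM (counts per M counts of the library), namely 14 ligands and 1 receptor, and 13249 symbols of the whole table were. A further 2 members, CCL2 and CXCR4, reached a mean of 1 CPM in 1 phase without reaching it on average. Another 6 had a highest phase mean between 0.1 and 1 CPM, 17 stayed under 0.1 CPM in every phase mean, and 10 were listed at 0 in all 16 libraries. The member closest above the limit of 1 CPM was CCL3L3 at 1.03 CPM, and the closest below it was CCL2 at 0.84 CPM.

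The 16 libraries came from T24, an established line of human bladder cancer cells, and from the gemcitabine-resistant line GRC1 that was selected from it step by step. Each of 4 phases had 4 libraries: parental T24 cells (P0), and the early phase P3, the intermediate phase P7 and the late phase P15 of the selection with gemcitabine, a nucleoside analogue that blocks DNA synthesis. The titles of all 16 libraries carry the letters NT, which the sources used here do not spell out. They also do not say whether gemcitabine was present when the RNA was taken. A single resistant line was followed, and nothing in the labels says that the 4 libraries of a phase came from separate cultures, so the p-values below measure the spread between libraries, which may be technical. The S numbers in the titles repeat between phases, and the labels used here do not say which libraries were sequenced together. Values are log2 of CPM plus 1 as deposited. Total counts, inferred from the steps between the smallest values above 0, were 33.8 to 50.0 M per library, which made 1 count worth 0.02 to 0.0296 CPM and 3 counts, the level set here for a listed 0, worth 0.06 to 0.0888 CPM. As counts came mostly in pairs, a 0 in a single library may allow more than this. In bulk RNA, fewer cells that express a gene and less of its RNA per cell cannot be told apart.

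Chemokines are small secreted proteins that draw leukocytes along a gradient by binding receptors of the cell membrane that signal through inhibitory G proteins. CXC ligands with the amino acids glutamate, leucine and arginine ahead of their first cysteines (CXCL1, CXCL2, CXCL3, CXCL5, CXCL6 and CXCL8) attract neutrophils through CXCR1 and CXCR2, whereas CXCL9, CXCL10 and CXCL11 lack these residues, are induced by interferon and attract T cells through CXCR3. Atypical receptors of the ACKR group bind chemokines and remove them without signalling through G proteins. Epithelial tumour cells, bladder cancer cells among them, are known to secrete neutrophil-attracting CXC ligands, and many chemokine genes are textbook targets of NF-kappaB, the transcription factor family of inflammatory signalling.

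The sequences in front of these genes showed a feature that the symbol rule did not use. RefSeq promoters on GRCh38.p14, from 250 bases before to 50 after the start, were at hand for 11 of the 15 members above 1 CPM and not for CCL5, CXCL16, CX3CL1 and CCR10. A match to the NF-kappaB motif on either strand was present in 8 of the 11, against 5.91% of 35116 promoters. The interferon response element (GAAA, any 2 bases, GAAA) was matched in 1 of the 11, at CXCL10, against 3.57% of promoters, the AP-1 motif TGANTCA in 2 against 7.71% and TATAAA in 4 against 11.5%. Members of a gene family share ancestry, so these matches are not independent of each other and were not tested. Stretches of 60 bases, from 110 to 51 before the start, are given 5′ to 3′ for the 6 neutrophil-attracting genes, to show which of them share the motif, and for CXCL11 and CCL20 as members of other groups that carry it; capitals mark NF-kappaB matches.
CXCL1: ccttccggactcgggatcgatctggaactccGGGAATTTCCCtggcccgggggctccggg
CXCL2: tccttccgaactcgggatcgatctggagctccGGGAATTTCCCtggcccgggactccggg
CXCL3: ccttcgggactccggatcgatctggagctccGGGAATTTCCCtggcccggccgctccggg
CXCL5: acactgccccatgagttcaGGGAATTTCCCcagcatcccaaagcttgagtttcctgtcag
CXCL6: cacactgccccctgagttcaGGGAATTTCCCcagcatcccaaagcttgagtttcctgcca
CXCL8: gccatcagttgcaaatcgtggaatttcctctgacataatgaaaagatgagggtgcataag
CXCL11: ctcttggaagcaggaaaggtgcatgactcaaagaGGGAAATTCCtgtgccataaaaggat
CCL20: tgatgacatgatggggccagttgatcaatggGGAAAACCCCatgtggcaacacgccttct
All these stretches lie on GRCh38.p14. CXCL1 is on the plus strand at chr4:73869283-73869342, CXCL6 on the plus strand at chr4:73836568-73836627 and CXCL8 on the plus strand at chr4:73740459-73740518. CXCL2 is on the minus strand at chr4:74099246-74099305, CXCL3 at chr4:74038740-74038799, CXCL5 at chr4:73998728-73998787 and CXCL11 at chr4:76036121-76036180, and CCL20 is on the plus strand at chr2:227813732-227813791. By GENCODE version 44, the stretches of CXCL1, CXCL2, CXCL6 and CXCL8 lie upstream of the gene. That of CXCL3 lies in an exon of a CXCL3 transcript without a defined coding sequence, that of CXCL5 in an exon of a long non-coding gene on the opposite strand, and those of CXCL11 and CCL20 within the gene but in no exon.

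The same 11 bases, read by the motif on both strands, stood in 5 promoters, those of CXCL1, CXCL2, CXCL3, CXCL5 and CXCL6, with a first base at positions -79, -78, -79, -91 and -90 from the start. Around them the genes fell into 2 kinds. Of 20 flanking bases, 17 or 18 were the same in each pair of CXCL1, CXCL2 and CXCL3, and 19 were the same between CXCL5 and CXCL6, but only 7 to 9 were the same between a gene of the one kind and a gene of the other. The letters of the NF-kappaB motif as searched were not found in the CXCL8 promoter, which held an AP-1 match at position -137. The CXCL8 stretch holds tggaatttcc, which differs from the GGGAATTTCC of the other 5 only in its first base. The missing match thus does not show that CXCL8 lacks an NF-kappaB site.

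Summed over the 50 members, chemokine transcripts made up 2055 ± 184.5 CPM at P0 (SD, n = 4 libraries), 3391 ± 104.3 CPM at P3, 878 ± 78.2 CPM at P7 and 4865 ± 265.7 CPM at P15. The sum was thus lowest in the intermediate phase and highest in the late phase, and the ranges of the 4 phases did not overlap. CXCL1 and CXCL8 together held 77.7% of the sum at P0, 85.0% at P3, 81.1% at P7 and 85.8% at P15, and the 6 neutrophil-attracting genes held 98.5, 97.1, 91.6 and 96.0%. Levels of different genes are comparable only per length, and per kilobase of exon CXCL1 was the highest member at P0, P3 and P7, with 754, 1209 and 404 CPM per kb, followed by CXCL8 with 219.8, 477 and 62.6 CPM per kb. At P15 the order of these 2 genes changed, with 1097 CPM per kb for CXCL8 and 979 CPM per kb for CXCL1.

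Phases were compared over all 13249 genes above 1 CPM with limma and Benjamini-Hochberg adjustment, and a gene was called at an adjusted p-value below 0.05 and a change of at least 2-fold. In P3 against P0, 9 of the 15 tested members were called higher and 1 lower, beside 1.95% of all tested genes called higher and 2.51% called lower. From P3 to P7 the direction turned, with 0 members called higher and 8 lower, beside 0.996 and 0.845% of all genes. In that comparison, 1 member had a positive difference at an unadjusted p-value below 0.05 and 9 had a negative one, and limma's test against a fold of 1.5 also called 0 higher and 8 lower. In P15 against P7, 9 members were called higher and 4 lower (all genes, 13.4 and 12.1%), and in P15 against P0, 7 were called higher and 3 lower (all genes, 12.2 and 11.5%). The median log2 fold change of the tested members was 1.15 from P0 to P3, -1.13 from P3 to P7, 1.28 from P7 to P15 and 0.98 from P0 to P15, where the medians of all tested genes were -0.02, 0.01, 0.05 and 0.04. The comparisons share phases and are not independent of each other. CX3CL1 and CCL3L3 passed the limit of 1 CPM only through the phases where they were high, so that a difference between phases was bound to appear in them. In 1 phase, CXCL11, CCL28 and CXCL5 (0.616, 0.037 and 0.043 CPM at P15) and CCL5 (0.651 CPM at P0) were under the limit. Their passing thus leaned on the other phases. CXCL16, CXCL6 and CCR10, among others, have exons that overlap other genes.

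**Figure D1:**
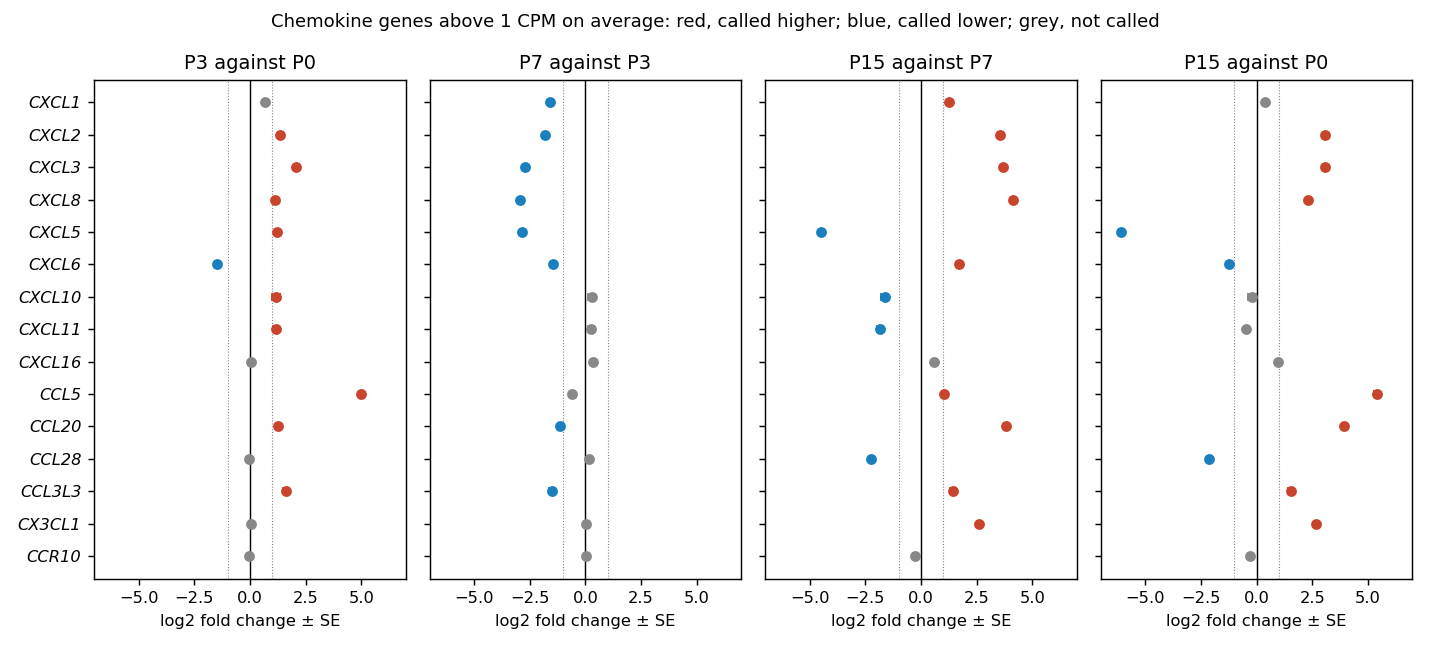
Log2 fold change ± SE on the log2(CPM + 1) scale (x axis) of the 15 members above 1 CPM on average (y axis) in 4 comparisons of phases, with dotted lines at a change of 2-fold. P7 against P3 holds 8 blue points, called lower, and no red point, called higher, whereas P15 against P7 holds 9 red and 4 blue points.

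The 6 neutrophil-attracting ligands fell together from P3 to P7 and parted company in the late phase. At P3, CXCL2, CXCL3, CXCL5 and CXCL8 were called higher than at P0, CXCL6 lower, and CXCL1 did not reach 2-fold. At P7, 6 of 6 were called lower than at P3. At P15, 5 of 6 were called higher than at P7, while CXCL5 fell further. Against P0, the late phase had higher CXCL2, CXCL3 and CXCL8, lower CXCL5 and CXCL6, and a CXCL1 level that was not called.

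CXCL8, the prototype ligand of CXCR1 and CXCR2, had log2 values of 8.94, 9.32, 9.23 and 9.10 in the 4 libraries of P0, 10.28, 10.27, 10.29 and 10.24 at P3, 7.16, 7.38, 7.53 and 7.30 at P7, and 11.47, 11.41, 11.44 and 11.56 at P15. No library of any phase overlapped another phase, with P7 lowest and P15 highest. The log2 fold change was 1.12 (SE 0.07, adjusted p = 2.1e-13) from P0 to P3, -2.93 (adjusted p = 8.5e-21) from P3 to P7 and 4.13 (adjusted p = 1.5e-25) from P7 to P15, with a net difference of 2.32 between P15 and P0 (adjusted p = 1.6e-20).

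CXCL1 encodes a ligand of CXCR2 and moved the same way over a narrower range. Its phase means were 10.00 ± 0.11 at P0 (SD, n = 4), 10.69 ± 0.07 at P3, 9.10 ± 0.14 at P7 and 10.38 ± 0.14 at P15. It was called lower from P3 to P7, by a log2 fold change of -1.58 (SE 0.07, adjusted p = 1.1e-15), and higher from P7 to P15, by 1.28 (adjusted p = 2.9e-15). Its differences against P0, 0.68 at P3 (adjusted p = 1.9e-09) and 0.38 at P15 (adjusted p = 1e-05), passed the p-value threshold and not the 2-fold threshold, and the libraries of P15 still lay above those of P0 without overlap.

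CXCL2 and CXCL3 are close relatives of CXCL1 and bind the same receptor. CXCL2 had log2 values of 4.68, 4.91, 4.94 and 4.92 at P0, 6.22, 6.26, 6.24 and 6.19 at P3, 4.35, 4.20, 4.77 and 4.31 at P7, and 7.73, 7.78, 8.24 and 8.02 at P15. The ranges of P0 and P7 overlapped, P3 lay above both and P15 above P3. CXCL2 changed by 1.37 from P0 to P3 (SE 0.10, adjusted p = 1.3e-11), by -1.82 from P3 to P7 (adjusted p = 1.8e-13) and by 3.54 from P7 to P15 (adjusted p = 1.3e-20), and stood 3.08 above P0 at the end (adjusted p = 2.4e-19).

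CXCL3 had 3.86, 3.88, 4.00 and 3.73 at P0, 6.0, 6.11, 5.95 and 5.76 at P3, 3.17, 3.16, 3.35 and 3.31 at P7, and 6.86, 6.84, 6.96 and 7.09 at P15. The 4 phases did not overlap, and P7 lay below P0. The log2 fold changes were 2.09 from P0 to P3 (SE 0.07, adjusted p = 8.6e-18), -2.71 from P3 to P7 (adjusted p = 1.8e-19), 3.69 from P7 to P15 (adjusted p = 7.8e-24) and 3.07 from P0 to P15 (adjusted p = 3.4e-22). Transcripts of CXCL3 and CXCL2 share some sequence: 5.3% of the 100-base windows of CXCL2 and 3.3% of those of CXCL3 occur in the other gene, so a small part of their counts depends on how shared reads were handled.

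CXCL5, another ligand of CXCR2, left this pattern at the end of the selection. Its log2 values were 6.09, 6.30, 6.10 and 6.18 at P0, 7.40, 7.50, 7.30 and 7.35 at P3, 4.44, 4.62, 4.54 and 4.63 at P7, and 0.14, 0.07, 0 and 0.03 at P15. It was thus nearly absent from the 4 late libraries, with a mean of 0.043 CPM there and 71.0 CPM in the parental cells. It changed by 1.22 from P0 to P3 (SE 0.06, adjusted p = 8.7e-15), -2.83 from P3 to P7 (adjusted p = 5.9e-21), -4.50 from P7 to P15 (adjusted p = 4.6e-27) and -6.11 from P0 to P15 (adjusted p = 9.8e-30). The size of a change to near 0 depends on the constant added before taking logs, and the last value ran from -9.00 to -3.91 over the alternative settings. A long non-coding gene on the opposite strand shares exon bases with CXCL5, and the sources used here do not name the strand setting of the counting.

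CXCL6, which binds CXCR1 and CXCR2, was the exception in the early phase. It had 8.15, 8.53, 8.24 and 8.29 at P0, 6.80, 6.85, 6.79 and 6.82 at P3, 5.21, 5.46, 5.41 and 5.33 at P7, and 7.14, 7.02, 7.04 and 6.98 at P15. P0 was highest, P7 lowest and P15 between P0 and P3, with no overlap between phases. The gene fell by 1.49 from P0 to P3 (SE 0.06, adjusted p = 1.8e-16) and by 1.46 from P3 to P7 (adjusted p = 9.2e-16), and was higher by 1.69 in P15 than in P7 (adjusted p = 1.4e-18), which left it 1.26 log2 units lower than in P0 (log2 fold change -1.26, adjusted p = 6.6e-16). It shares exon bases with the pseudogene PPBPP1 on the same strand.

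**Figure D2:**
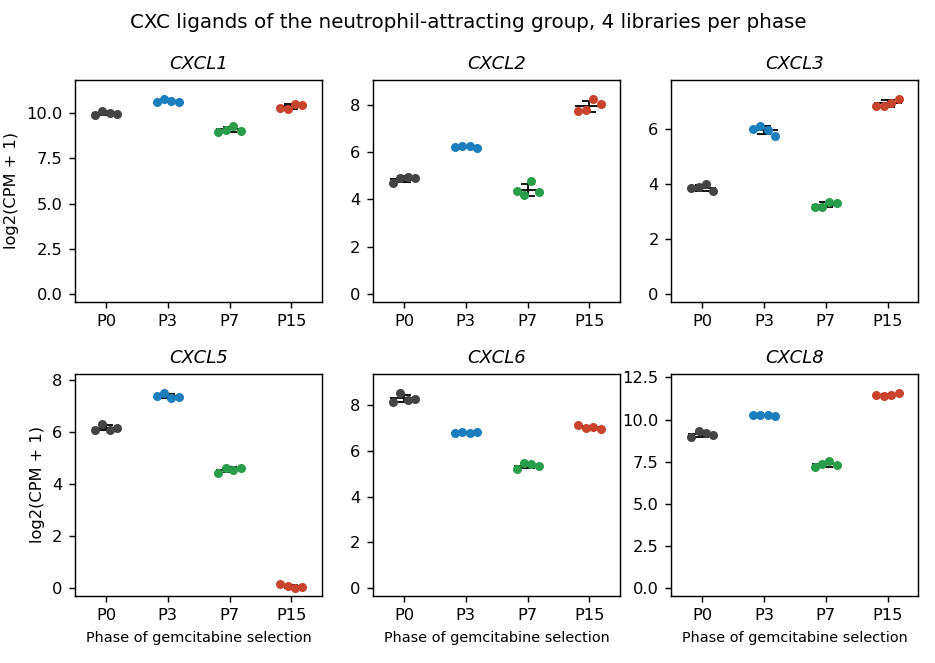
Log2(CPM + 1) of the 6 neutrophil-attracting ligands (y axis of each panel, own scale from 0) in the 4 phases (x axis), with 1 point per library and bars for the mean ± SD of 4 libraries. P7 lies under P3 in each panel, and CXCL5 alone ends near 0 at P15.

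These 6 genes follow each other in the order of the members on chromosome 4, and genes outside the symbol rule may lie between them. In the order CXCL8, CXCL6, CXCL1, CXCL5, CXCL3 and CXCL2, they lie on chromosome 4 between bases 73740519 and 74099196 of GRCh38, the first 3 on the plus strand and the other 3 on the minus strand. From P0 to P15, CXCL5 changed by -6.11 and CXCL3, the next member on the same strand, by 3.07. CXCL6 changed by -1.26 and CXCL8, the member ahead of it in the row, by 2.32. In the order of the row, the genes called higher in P15 than in P0 were CXCL8 at one end and CXCL3 and CXCL2 at the other, and CXCL6, CXCL1 and CXCL5 between them were called lower or not called. The 5 genes that share the 11-base run also included both directions, with CXCL2 and CXCL3 called higher in P15 than in P0, CXCL5 and CXCL6 called lower and CXCL1 not called. The pair with the most similar flanks, CXCL5 and CXCL6, was called lower against P0 in both cases, but from P7 to P15 CXCL6 rose by 1.69 and CXCL5 fell by 4.50. These are counts over 6 related genes and were not tested.

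**Figure D3:**
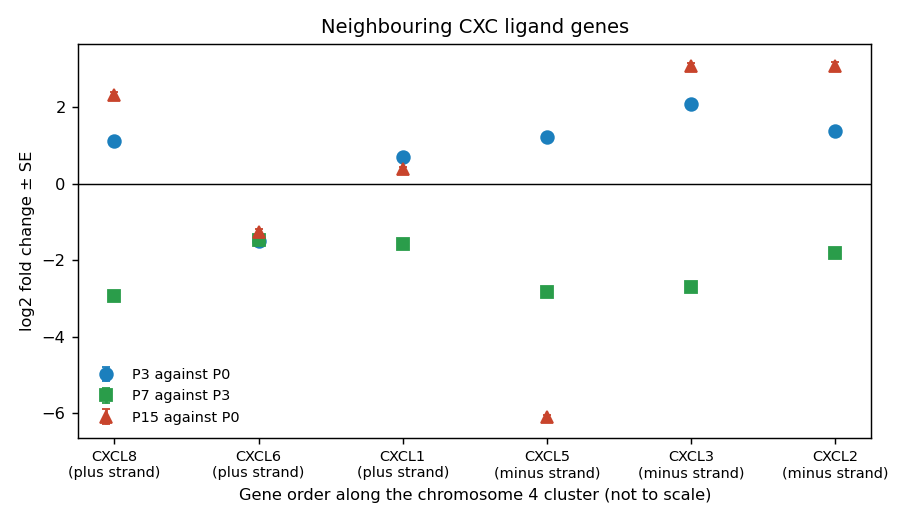
Log2 fold change ± SE on the log2(CPM + 1) scale (y axis) of the 6 neutrophil-attracting ligand genes in their order on chromosome 4 (x axis, not to scale, other genes left out), for P3 against P0 (circles), P7 against P3 (squares) and P15 against P0 (triangles). The squares are all under 0, whereas the triangles run from -6.11 for CXCL5 to 3.08 for CXCL2.

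The ligands of CXCR3 followed another course, with a plateau over P3 and P7 and a fall in the late phase. CXCL11 had log2 values of 1.08, 1.52, 1.15 and 0.83 at P0, 2.23, 2.29, 2.57 and 2.09 at P3, 2.41, 2.47, 2.66 and 2.59 at P7, and 0.89, 0.68, 0.47 and 0.70 at P15. Libraries of P3 and P7 overlapped each other and lay above those of P0 and P15, which overlapped too. It was called higher from P0 to P3, by 1.15 (SE 0.13, adjusted p = 2.2e-08), and lower from P7 to P15, by a log2 fold change of -1.85 (adjusted p = 1e-12). Its phase means were 1.245, 3.944, 4.799 and 0.616 CPM at P0, P3, P7 and P15. It passed the limit of 1 CPM mostly through P3 and P7, so that these p-values lend little support. Its difference between P15 and P0 was -0.46 (adjusted p = 0.0017), which passed the p-value threshold and not the 2-fold threshold.

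CXCL10, induced by interferon and by NF-kappaB, had phase means of 1.78 ± 0.57 at P0 (SD, n = 4), 2.95 ± 0.11 at P3, 3.23 ± 0.08 at P7 and 1.59 ± 0.22 at P15. A single parental library, replicate 2, had 2.62, while the other 3 had 1.36 to 1.59. CXCL10 was called higher from P0 to P3, by 1.17 (SE 0.17, adjusted p = 2.1e-06), and lower from P7 to P15, by -1.64 (adjusted p = 3.6e-09). Its difference between P15 and P0 was -0.20 (adjusted p = 0.29), and 0.08 without that library. CXCL9, the third of this group, which lies beside them on chromosome 4, had phase means of at most 0.051 CPM.

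CXCL16, a membrane-anchored ligand of CXCR6 that is released by cleavage, changed slowly and in 1 direction. Its phase means were 3.66 ± 0.15 at P0 (SD, n = 4), 3.73 ± 0.03 at P3, 4.06 ± 0.05 at P7 and 4.64 ± 0.04 at P15. None of the 4 comparisons called it, since the difference of 0.98 between P15 and P0 (SE 0.06, adjusted p = 4.5e-13) stayed just under 2-fold on the log2(CPM + 1) scale. That difference was 1.05 without P0 replicate 1. In CPM, the phase means of 11.7 at P0 and 23.9 at P15 differed by slightly more than 2-fold. Its exons overlap those of MED11 and ZMYND15 on the opposite strand.

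Among the CC ligands, CCL5 and CCL20 ended far above the parental level. CCL5, which attracts T cells and monocytes, had log2 values of 0.61, 0.99, 0.86 and 0.35 at P0, 5.60, 5.76, 5.69 and 5.66 at P3, 5.08, 5.04, 5.08 and 5.07 at P7, and 6.04, 6.02, 6.34 and 5.97 at P15. The 3 selected phases lay far above P0, and no phase overlapped another. Unlike the neutrophil-attracting ligands, it was not called from P3 to P7 (-0.61, SE 0.10, adjusted p = 8.6e-06), and its rise of 1.03 from P7 to P15 (adjusted p = 4.4e-10) was 0.94, under 2-fold, without P15 replicate 3. Against P0, the late phase stood 5.39 higher (adjusted p = 2e-24).

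CCL20, the ligand of CCR6, had 2.47, 2.64, 2.42 and 2.6 at P0, 3.76, 3.79, 3.75 and 3.87 at P3, 2.77, 2.54, 2.79 and 2.56 at P7, and 6.36, 6.31, 6.74 and 6.51 at P15. P7 overlapped P0, and P15 lay above all others. It changed by 1.26 from P0 to P3 (SE 0.08, adjusted p = 2.5e-12), -1.13 from P3 to P7 (adjusted p = 4.8e-11) and 3.82 from P7 to P15 (adjusted p = 9.6e-23), for a difference of 3.95 between P15 and P0 (adjusted p = 5.2e-23). It thereby rose, fell and rose at the same steps as CXCL2, CXCL3 and CXCL8.

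CCL28, a chemokine of mucosal epithelia that binds CCR10, was lost in the late phase. Its values were 2.04, 2.25, 2.25 and 2.20 at P0, 2.01, 2.18, 2.33 and 2.09 at P3, 2.16, 2.16, 2.42 and 2.42 at P7, and 0, 0.07, 0.08 and 0.06 at P15. The first 3 phases overlapped, and each late library was near 0. The log2 fold change was -2.24 from P7 to P15 (SE 0.09, adjusted p = 4.4e-17) and -2.13 from P0 to P15 (adjusted p = 1.3e-16), while those of the earlier steps were -0.03 (adjusted p = 0.77) and 0.14 (adjusted p = 0.21). The size of the late change depends on the constant added before taking logs. Over the alternative settings it ran from -4.88 to -0.82 against P7 and from -4.75 to -0.76 against P0, so the weakest values were under 2-fold.

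CCL3L3, a near-copy of the macrophage inflammatory protein gene CCL3, was listed at 0 in 4 of 4 parental libraries. It had phase means of 1.62 ± 0.25 at P3 (SD, n = 4), 0.12 ± 0.10 at P7 and 1.53 ± 0.19 at P15, at least 25.5-fold and 22.9-fold higher than P0 at P3 and P15 on the CPM scale, with P0 set to 3 counts per library. CCL3 itself, below 1 CPM on average and not tested, was also at 0 in the 4 parental libraries and had 0.434 to 0.765 CPM at P3, 0 to 0.021 CPM at P7 and 0.087 to 0.223 CPM at P15, at least 7.2-fold higher at P3 than at P0. The pair thus had its high phases in common. No 100-base window of one occurs in the other. The study's methods give reads longer than such a window, though shorter aligned parts of reads may fit both.

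CX3CL1, also called fractalkine, is held on the cell surface by a stalk and serves as an adhesion molecule as well as an attractant. It was listed at 0 in the 4 libraries of P0, had 0, 0.07, 0.07 and 0 at P3 and 0, 0.06, 0.16 and 0.07 at P7, and reached 2.52, 2.63, 2.93 and 2.56 at P15. It was thus a gene of the late phase, at least 64.5-fold higher at P15 than at P0 on the CPM scale, with P0 set to 3 counts per library. The fitted log2 fold change from P7 to P15 was 2.59 (SE 0.10). As CX3CL1 passed the limit of 1 CPM only through P15, a rise was bound to appear, and its p-value lends no support.

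**Figure D4:**
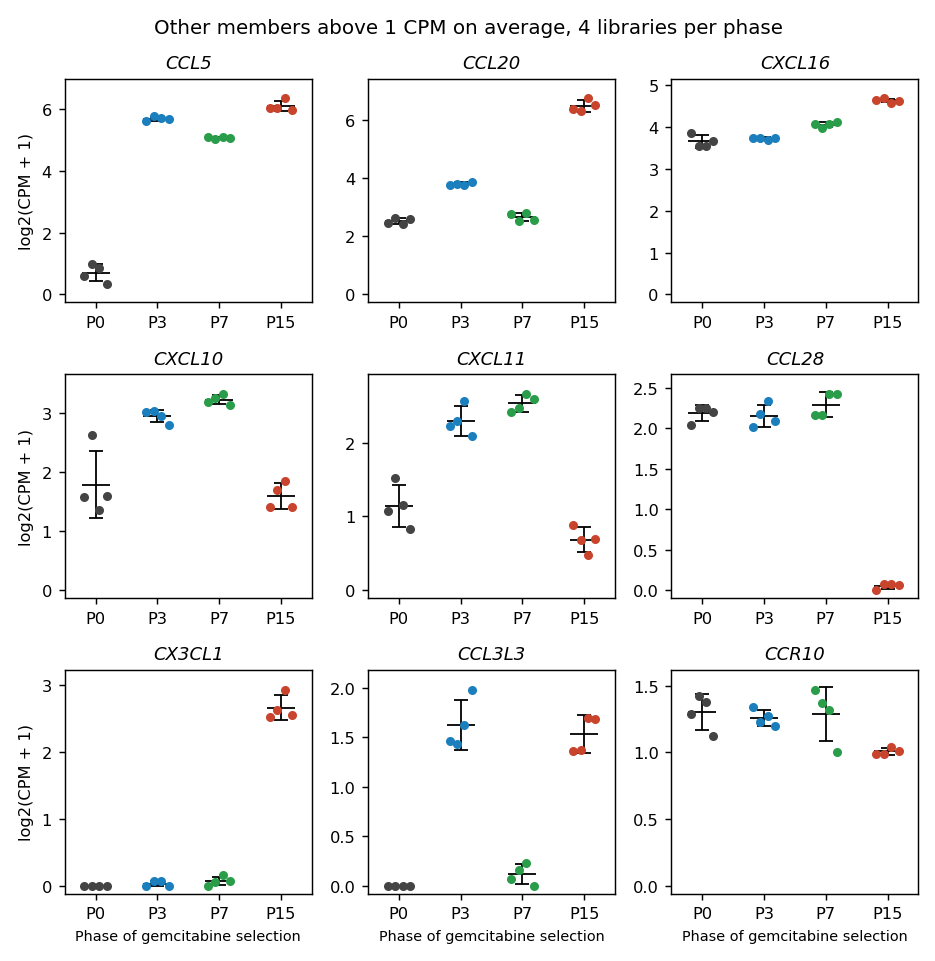
Log2(CPM + 1) of the other 9 members above 1 CPM on average (y axis of each panel, own scale from 0) in the 4 phases (x axis), with 1 point per library and bars for the mean ± SD of 4 libraries. CCL5 and CCL20 end highest at P15, CXCL10 and CXCL11 peak over P3 and P7, and CCL28 ends near 0 where CX3CL1 appears.

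Receptor transcripts were few throughout. CCR10, the receptor of CCL28 and of the skin chemokine CCL27, was the only one of 19 above 1 CPM on average, with 1.47 CPM at P0, 1.40 at P3, 1.46 at P7 and 1.01 at P15. None of its 4 comparisons was called, the largest difference being -0.30 between P15 and P0 (SE 0.10, adjusted p = 0.0086). Its exons overlap those of CNTNAP1 on the opposite strand, so that reads of the 2 genes cannot be told apart if strand was not used.

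CXCR4, the receptor of CXCL12, had 0.165 to 0.329 CPM at P0, 0.803, 1.07, 1.33 and 1.6 CPM at P3, 0.05 to 0.173 CPM at P7 and 0.05 to 0.165 CPM at P15. The early libraries lay above those of each other phase, without a test, since the gene was under the limit of 1 CPM on average. CXCR6, which binds CXCL16, also had its highest mean at P3, 0.642 CPM, against 0.168 CPM at P0, but its ranges at P3 and P7 overlapped. CCR7, a receptor of lymph node homing, had 0.275 to 0.753 CPM at P0 and was listed at 0 in the 4 late libraries, at least 6.0-fold lower with P15 set to 3 counts per library.

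Of the atypical receptors, ACKR3, which removes CXCL12, had phase means of 0.153, 0.276, 0.266 and 0.073 CPM at P0, P3, P7 and P15. ACKR4, which removes CCL19, CCL21 and CCL25, had at most 0.117 CPM in any library of the first 3 phases and 0.197 to 0.444 CPM at P15. These low levels were not tested, and ACKR4 shares exon bases with ACAD11 on the opposite strand. The other receptors were under 0.1 CPM in every phase mean (8 of 19) or listed at 0 in all libraries (CCR2, CCR3, CCR6, CXCR1 and CXCR5). Beside the ligands CXCL8, CXCL1 and CCL20, transcripts of their receptors were at or near 0. CXCR2 had at most 0.056 CPM in a phase mean, and CXCR1 and CCR6 were at 0 in all libraries, where 3 counts were worth at most 0.0888 CPM.

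Below 1 CPM on average, CCL2, the main attractant of monocytes, was the ligand with the highest single phase. It had 3.76, 3.14, 2.73 and 2.23 CPM at P0, 0.11 to 0.301 CPM at P3, 0 in the 4 libraries of P7, and 0.087 to 0.248 CPM at P15. The parental libraries lay above those of each selected phase, and the fall from P3 to P7 was at least 3.1-fold with P7 set to 3 counts per library. With no limit on the mean level, limma called it lower at P3 (-1.67, adjusted p = 5.4e-10) and at P15 (-1.76, adjusted p = 4.9e-11) than at P0. CCL4L2, a copy of the gene of macrophage inflammatory protein 1 beta, was at 0 at P0 and had means of 0.13, 0.04 and 0.227 CPM in the phases that followed. The ligands listed at 0 in all libraries were CCL14, CCL16, CCL18, CCL19 and CCL25.

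**Figure D5:**
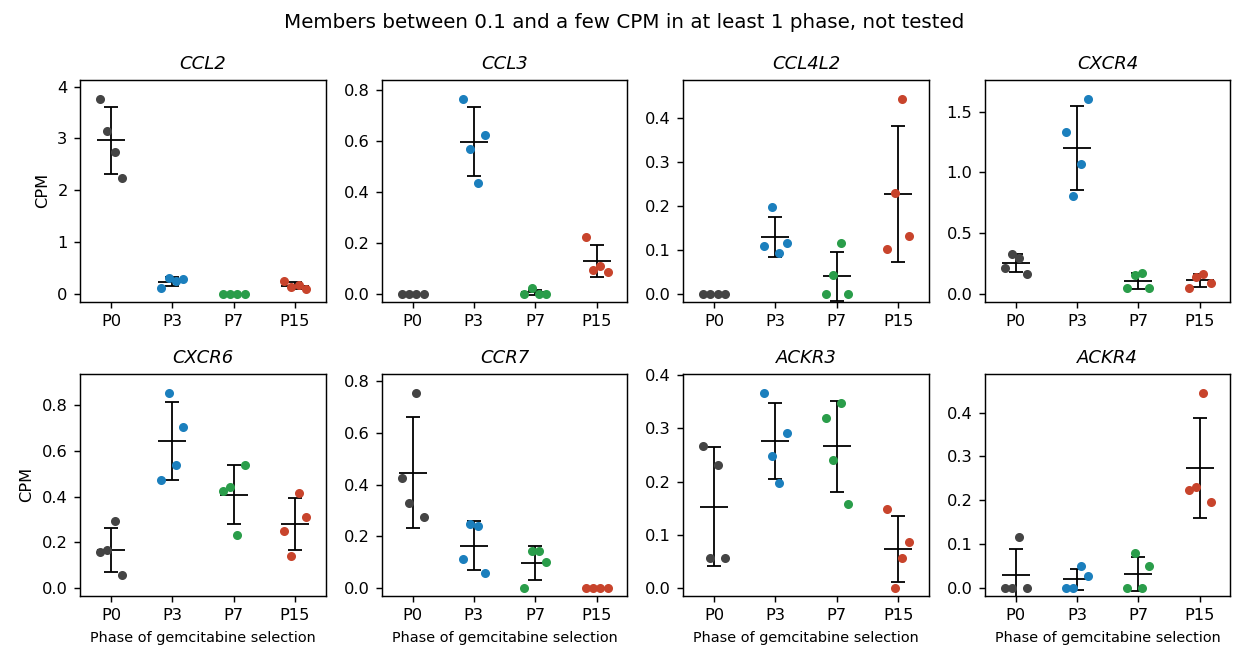
CPM (y axis of each panel, own scale from 0) of 8 members with a highest phase mean of at least 0.1 CPM and an average below 1 CPM, in the 4 phases (x axis), with 1 point per library and bars for the mean ± SD of 4 libraries. CCL2 and CCR7 are highest at P0, CXCR4 and CCL3 at P3, and ACKR4 at P15.

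Genes around the chemokines came from 4 lists, whose counts are read beside the shares of all tested genes called higher and lower, which were 1.95 and 2.51% in P3 against P0, 0.996 and 0.845% in P7 against P3, and 12.2 and 11.5% in P15 against P0. Of 21 genes that induce chemokines, cytokines and sensors as well as NF-kappaB and interferon regulators, 20 were tested. In P3 against P0, 1 was called higher, TNFAIP3, a feedback inhibitor of NF-kappaB that is also one of its targets (1.56, SE 0.06, adjusted p = 8.4e-17), and 0 lower. In P7 against P3, 2 were called lower, TNFAIP3 (-1.58, adjusted p = 2.5e-16) and IL1B, an inflammatory cytokine (-1.40, adjusted p = 2.6e-20), and 0 higher. In P15 against P0, 3 of the 20 were called higher and 6 lower. Higher were RELB (1.62) and NFKB2 (1.05), subunits of the noncanonical NF-kappaB pathway, and IFIH1, a sensor of viral RNA, whose log2 fold change of 1.0 met the threshold exactly. Lower were the cytokines IL1A (-5.14) and IL1B (-3.30), the sensors TMEM173 (-4.18), which encodes STING, and TLR3 (-2.0), and the interferon regulators IRF7 (-1.59) and IRF1 (-1.02).

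The list of receptor signalling held 24 symbols, among them ADRBK1 and ADRBK2, older symbols of the listed GRK2 and GRK3. Of these symbols, 21 were in the expression table and 17 were tested. Among the 17, 0 were called higher and 1 lower in P3 against P0, 0 and 0 in P7 against P3, and 2 and 7 in P15 against P0, where 2 of 17 is close to the share of all genes called higher. The lower ones included genes best known from leukocytes: RAC2, a small GTPase of cell migration, changed by -6.70 (SE 0.05, adjusted p = 2e-32), from 279.8 to 1.71 CPM. PIK3CG, the kinase subunit downstream of G proteins, changed by -3.37 and was at 0 CPM at P15, and the guanine nucleotide exchange factors PREX1 and DOCK2 changed by -2.92 and -2.42. GRK5, ARRB1 and PTK2B, which act in receptor desensitisation and adhesion signalling, changed by -1.79, -1.74 and -1.44, while ARRB2 (1.03) and GRK3 (1.23) were called higher.

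The relatives outside the symbol rule were 9, of which 2 were tested. Both were called lower in P15 against P0, CD74, a receptor of the cytokine MIF and the invariant chain of antigen presentation (-4.96, adjusted p = 1.7e-25), and CCRL2, a chemokine-binding receptor without known signalling (-1.21, adjusted p = 5.1e-10). CCRL2 had phase means of 1.344, 1.641, 1.946 and 0.012 CPM at P0, P3, P7 and P15. Its passing of the limit of 1 CPM thus leaned on the phases before P15. The last list held 7 genes of shedding and mRNA decay, 2 of which were called higher and 0 lower in P15 against P0. ADAM17, a protease that sheds CX3CL1 and other surface proteins, changed by 1.01 (SE 0.04, adjusted p = 1.2e-17). ZFP36, whose protein speeds the decay of cytokine and chemokine mRNAs, changed by 2.97 (adjusted p = 3.9e-21). The mRNA of this decay factor was thus highest in the same phase as those of CXCL8, CXCL2, CXCL3 and CCL20.

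Markers of the cells themselves changed too, some of them before the late phase. In P15 against P0, 12.2% of all tested genes were called higher and 11.5% lower. Of 6 epithelial markers, 4 of the 5 tested were called lower in P15 against P0, among them KRT7 (-6.26) and KRT19 (-6.41), while KRT18 was not. KRT19 was already called lower in P7 against P3 (-1.92). The summed level of the epithelial markers was 2075 to 2153 CPM in the parental libraries and 673.1 to 750.5 CPM in the late ones. Of 7 urothelial markers, the 2 tested, the transcription factors GATA3 (-3.93) and PPARG (-1.83), were both called lower in P15 than in P0, and the summed level was 95.7 to 102.8 CPM in the parental libraries and 18.4 to 21.9 CPM in the late ones. Uroplakins, which define differentiated urothelium, were below 1 CPM on average, and UPK1A had phase means of 0.075 CPM at P0 and 1.98 CPM at P15. Of 6 leukocyte markers in the table, CD14 alone passed 1 CPM, PTPRC and CD3E were at or near 0 (at most 0.014 CPM in a phase mean), and the summed level was 6.55 to 8.84 CPM at P0, 2.19 to 2.50 at P3, 5.61 to 6.51 at P7 and 0.14 to 0.53 at P15. Of 3 endothelial markers, only CDH5 passed 1 CPM, through P0 alone, with phase means of 5.69, 0.219, 0 and 0.132 CPM at P0, P3, P7 and P15. A fall from P0 (-2.56 in P15 against P0) was thus bound to appear, and it was in place at P3 already. Of 4 fibroblast markers, COL1A1 alone passed and was called higher in P15 than in P0 (2.05). The part of these markers' changes in the chemokine results was not tested.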

How the data were processed

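RNA of T24 cells and of 3 phases of the GRC1 line was sequenced in 16 libraries, 4 per phase. Per the labels and the study's methods, the authors aligned the reads with STAR 2.6.1a to GRCh38, counted them on genes with featureCounts, and deposited log2(CPM + 1) to 2 decimals. Quantile normalization and median centring are described in the methods, but the deposited log2 values show neither. Strand setting and handling of reads that fit several genes are not given in the sources used here. Total counts were inferred from the steps between the smallest values above 0. Genes at 2 counts were 2.92 to 3.25 times as many as genes at 1 count, so counts came mostly in pairs and carry less information than their number.

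Members were found by symbol, and all 50 matched 1 gene of GENCODE version 44. The members, the 4 lists of related genes and the marker lists were chosen with earlier results of these data known. A gene of the marker lists is not reported here, and the counts and sums leave it out. Differences between phases were tested on the deposited log2 values by limma (version 3.58.1, R 4.3.3), with a coefficient for each phase, all 16 libraries in the fit, the variance prior following the mean level, and p-values adjusted by Benjamini-Hochberg for the 13249 genes averaging over 1 CPM. Calls needed an adjusted p-value below 0.05 and a log2 fold change of 1 or more in either direction. Fold changes are on the log2(CPM + 1) scale and understate the change of low genes. A listed 0 was set to 3 counts per library for bounds on a fold, which cover counting error only. The procedure was tested on simulated data. Tables and figures were made in Python 3.11.15 with numpy 2.4.6, pandas 2.3.3 and matplotlib 3.10.9.

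Each member above 1 CPM on average is named with its phase values, each other member that reached 1 CPM in a phase mean and each receptor that reached 0.1 CPM likewise, and the values of single libraries are given for the 10 tested members with the largest change in any comparison. CCL3, CCL4L2, CXCL9 and CXCR2 were named outside this rule, after their values were seen. Replicate numbers came from the sample descriptions, which differ from those in the titles. Deviations from the phase means of libraries with the same number correlated at -0.15 to 0.22 across genes, above 0.1 in 1 of 24 pairs, so the numbers were not taken to pair libraries. The alternatives were pseudocounts of 0.1 and 5, other filters on low values, quantile normalization, a shift to equal medians, no variance trend, fits of 2 phases at a time, calls by p-value alone, limma's treat test, a replicate block by either number, and each library left out in turn.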

Additional observations from a re-analysis of the deposited data

Results flagged for a closer look

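The neutrophil-attracting ligand CXCL2 had 1 parental library, replicate 1, apart from the others: its log2 value of 4.68 lay below 4.91 to 4.94, a gap that made up 0.88 of the range of the 4 libraries. The membrane-anchored ligand CXCL16 had its lowest library of P3, replicate 3, at 3.69, at a gap of 0.83 of a range that reached only to 3.75. Among 53 groups of 4 libraries, these were the 2 with a gap past the 95% limit, where about 2.6 would be met by chance at 1 in 20. No call of CXCL2 changed without P0 replicate 1, and none of CXCL16 without P3 replicate 3.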

How the results depend on the processing

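Of 41 calls of a member in a comparison, 28 stood under every alternative that tested the gene and 0 changed direction. The P0 to P3 rises of CXCL10 (0.635), CXCL11 (0.518), CCL3L3 (0.506) and CCL20 (0.867) were under 2-fold with a pseudocount of 5 CPM. With a pseudocount of 5 CPM, which compresses low genes, the members called numbered 6 in place of 10 from P0 to P3 and 8 in place of 13 from P7 to P15. With at least 1 CPM required in all 16 libraries, which leaves 8 members tested, they numbered 6 from P0 to P3, 7 from P7 to P15 and 5 in place of 10 from P0 to P15. With 1 library left out, they ranged from 10 to 10, 8 to 8, 12 to 13 and 10 to 11 over the 4 comparisons, where the 12 came without P15 replicate 3 (CCL5, 0.94) and the 11 without P0 replicate 1 (CXCL16, 1.05). A replicate block gave 10, 8, 13 and 10 called members with either numbering. Values near 0 turned sign, none of them called: after quantile normalization CCL28 was 0.082 from P0 to P3, and CCR10 was 0.043 from P0 to P3 and -0.013 from P3 to P7. With 1 library left out, CCL28 from P0 to P3 ran from -0.092 to 0.015 (without P3 replicate 1), CCR10 from P3 to P7 ran from -0.03 (without P7 replicate 1) to 0.127, and CXCL10 from P0 to P15 ran from -0.337 to 0.083 (without P0 replicate 2). The causes of these were not tested. Depth limits receptors and other members under 0.1 CPM, where a phase mean rests on a few counts.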

Other observations

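MIF, a cytokine that binds CD74 and CXCR4 and that most cultured cells express, had phase means of only 0.130, 0.032, 0.054 and 0.285 CPM at P0, P3, P7 and P15. The values of other genes do not show why, and its level in these cells is best looked at in the reads. IFNB1, the gene of interferon beta, had phase means of 0.014 CPM at P0, 1.13 at P3, 1.07 at P7 and 0.427 at P15, with P3 and P7 the highest phases, as for CXCL10 and CXCL11. It was under the limit of 1 CPM on average and was not tested.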
